A study of Mus musculus with 6 samples.

Results

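A set of 6 genes in close order on mouse chromosome 2 were examined in Morc3 ko and wild-type ES cells: Set, Pkn3, Zdhhc12, Zer1, Tbc1d13 and Endog, of the 24054 genes counted. They were chosen on their values in these same libraries: Tbc1d13 and Zer1 because they were higher in Morc3 ko cells, and the other 4 as flanking genes. The differences of these 6 genes between ko and wild type, on either strand, are therefore given as a description, without a test. All 6 passed the filter on low counts. The 6 genes cover 112074 bp between the start of Set and the end of Endog, and in the RefSeq table of assembly GRCm38.p6 (mm10) the order along the chromosome is Set, Pkn3, Zdhhc12, Zer1, Tbc1d13, Endog.

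RNA-seq libraries depleted of ribosomal RNA were available for 3 Morc3 ko and 3 wild-type samples. All were feeder-independent mouse ES cells grown on gelatin in serum with LIF. The wild-type samples are the line wt26, labelled p42, p43 and p56, and the ko samples are the single clones KO27-1, KO27-2 and KO27-3, derived from wt26 by Cas9 editing of Morc3 with puromycin selection. Each ko library is 1 clone, and nothing in the labels states that the wild-type samples are separate cultures, so that p-values measure the spread between these samples. The libraries held 10740618 to 11525164 sense counts on genes in ko and 13013286 to 14123131 in wild type. Morc3, the targeted gene, was at 77.8, 137.9 and 134.6 CPM (sense counts scaled to the effective library size of edgeR) in clones 1, 2 and 3 and at 276.8, 272.0 and 302.2 CPM in p42, p43 and p56 (log2 fold change -1.28, SE 0.16, edgeR adjusted p = 8.4e-04, n = 3 per group). All 10 ES cell markers were present and 0 were called (edgeR adjusted p under 0.01), beside 1.28% of all tested genes. Their summed level was 6198 to 6296 CPM in ko and 5681 to 5802 CPM in wild type. The largest differences were in Dppa5a (1369 CPM in ko, 1017 CPM in wild type) and Zfp42 (1463 and 1316 CPM). Sox2 (621 and 638 CPM) and Tdgf1 (716 and 764 CPM) were lower in ko. Markers of other cell types were lower in sum. Trophoblast markers (5 genes) summed to 63.6 to 80.8 CPM in ko and 74.7 to 88.0 CPM in wild type, neuroectoderm markers (5 genes, 1 at 0 in every library) to 21.2 to 24.7 and 20.1 to 22.3 CPM, endoderm markers (6 genes) to 1.27 to 1.59 and 1.93 to 2.73 CPM, and mesoderm markers (5 genes, 1 at 0) to 1.85 to 2.49 and 2.17 to 2.68 CPM. Fibroblast markers (6 genes, 2 at 0) summed to 5.30 to 5.64 CPM in ko and 8.55 to 9.59 CPM in wild type, and Thy1, which made up most of this sum, was called lower in ko (log2 fold change -0.86, SE 0.14, edgeR adjusted p = 0.0064, n = 3). The part of these cell types in the results was not tested. The library p56 stood apart on chromosome 14, where the median of 422 genes was 0.36 (log2) above p42 and p43 and the ko clones were at -0.08 to -0.10. Without p56 the log2 fold change was 1.30 for Tbc1d13, 0.76 for Zer1 and 0.39 for Endog.

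Tbc1d13 encodes a protein with a TBC domain, the fold by which such proteins switch off small GTPases of the Rab family. Rab35, which acts in recycling between endosomes and the cell surface, is a known substrate of Tbc1d13. Zer1 is a substrate receptor of a Cullin 2 ubiquitin ligase and, with its relative Zyg11b, recognises proteins that begin with glycine. Set encodes a histone chaperone of the NAP family that also inhibits protein phosphatase 2A. Pkn3 is a serine and threonine kinase of the protein kinase N family, Zdhhc12 attaches palmitate to proteins, and Endog is a nuclease of the mitochondrial intermembrane space.

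The genes that were higher, Zer1 and Tbc1d13, stand head to head. Zer1 is transcribed from the minus strand (chr2:30097283-30126287) and Tbc1d13 from the plus strand (chr2:30133730-30152014), and their start sites in the promoter table lie 9135 bp apart, so that the 2 genes are transcribed away from each other. The gap between Zdhhc12 and Zer1 is 3644 bp and that between Tbc1d13 and Endog is 19393 bp. The 250 bases before each start site (RefSeq, GRCm38.p6) are printed because they are the nearest upstream sequence of the genes with higher counts. They lie at chr2:30133496-30133745 on the plus strand for Tbc1d13 and chr2:30124612-30124861 on the minus strand for Zer1, each read 5′ to 3′ in the direction of its gene. Capitals mark the letters GGGCGG (GC box), CACGTG (E box) and TGACG (core of the cAMP response element), on either strand.
Tbc1d13: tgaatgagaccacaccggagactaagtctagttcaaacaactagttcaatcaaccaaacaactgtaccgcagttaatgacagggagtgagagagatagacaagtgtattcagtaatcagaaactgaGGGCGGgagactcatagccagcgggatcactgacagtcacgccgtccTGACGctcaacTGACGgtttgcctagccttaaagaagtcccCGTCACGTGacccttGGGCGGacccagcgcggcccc
Zer1: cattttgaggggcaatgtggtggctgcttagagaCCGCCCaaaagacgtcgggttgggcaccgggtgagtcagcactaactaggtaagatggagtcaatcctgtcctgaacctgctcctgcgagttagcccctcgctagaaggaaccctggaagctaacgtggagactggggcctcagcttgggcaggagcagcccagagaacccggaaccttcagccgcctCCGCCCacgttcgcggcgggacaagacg

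Both sequences held 2 GC boxes. At least 1 GC box was found in each of the 7 upstream entries of the 6 genes (Set has 2 entries) and in 32.7% of 32851 upstream sequences of the same length. The sequence of Tbc1d13 also held 1 E box, a motif in 6.02% of all entries, and 3 matches to the TGACG core, found in 17.8% of all entries. In Tbc1d13 the E box shares 2 bases with a reverse-strand TGACG match, so that their capitals run together. The Zer1 sequence held no match to either, and neither sequence held CCAAT (33.8% of all entries), TATAAA (12.4%), CGGAAG (ETS core, 13.6%), GCGCATG (NRF1 core, 3.24%) or ATGGCGG (YY1 core, 2.21%). The GC content was 52.4% for Tbc1d13 and 60.4% for Zer1, beside a median of 52.4% over all entries, and the number of CpG dinucleotides was 13 and 15, beside a median of 6. The Zer1 window lies inside the RefSeq span of Zer1, whose 5′ end is farther upstream than the tabulated start site. Matches are letters in these windows and do not show that a factor binds there.

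Tbc1d13 was the gene of the 6 with the largest difference. It was counted 3689, 3846 and 3731 times in clones 1, 2 and 3 and 1945, 1928 and 1928 times in p42, p43 and p56, although the wild-type libraries were deeper. This corresponds to 340.9, 339.5 and 338.6 CPM in ko and 140.9, 135.0 and 148.9 CPM in wild type. The lowest ko library stood 2.27-fold above the highest wild-type library, and the groups did not overlap. The means were 339.65 ± 1.14 CPM in ko and 141.6 ± 6.97 CPM in wild type (SD, n = 3), a log2 fold change of 1.26 (SE 0.06), or 2.40-fold. In bulk samples, a higher level per cell and a higher share of cells of one kind cannot be told apart. The 3 clones differed by a coefficient of variation of 0.336%, which is below the 1.63% that counting error alone gives at these counts. Per kb of transcript, the level of Tbc1d13 was 94.5 ± 0.318 CPM per kb in ko and 39.4 ± 1.94 CPM per kb in wild type.

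Zer1 was a gene of low level. Its counts were 236, 195 and 193 in clones 1, 2 and 3 and 157, 155 and 138 in p42, p43 and p56, that is 21.8, 17.2 and 17.5 CPM in ko and 11.4, 10.9 and 10.7 CPM in wild type. All 3 clones stood above all 3 wild-type libraries, by at least 1.51-fold between the closest pair, and clone 1 was the highest. The means were 18.8 ± 2.57 CPM and 10.96 ± 0.369 CPM (SD, n = 3), a log2 fold change of 0.78 (SE 0.12), or 1.72-fold. Against the wild-type mean, clone 1 had a log2 ratio of 0.98 and clones 2 and 3 had 0.64 and 0.67, whereas Tbc1d13 had 1.27, 1.26 and 1.26 in the same clones. Clone 1, which had the highest Zer1, was also the clone with the lowest Morc3 RNA. With 3 clones, a link between these levels was not tested. Per kb, Zer1 was at 4.50 ± 0.613 CPM per kb in ko and 2.62 ± 0.088 CPM per kb in wild type.

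**Figure D1:**
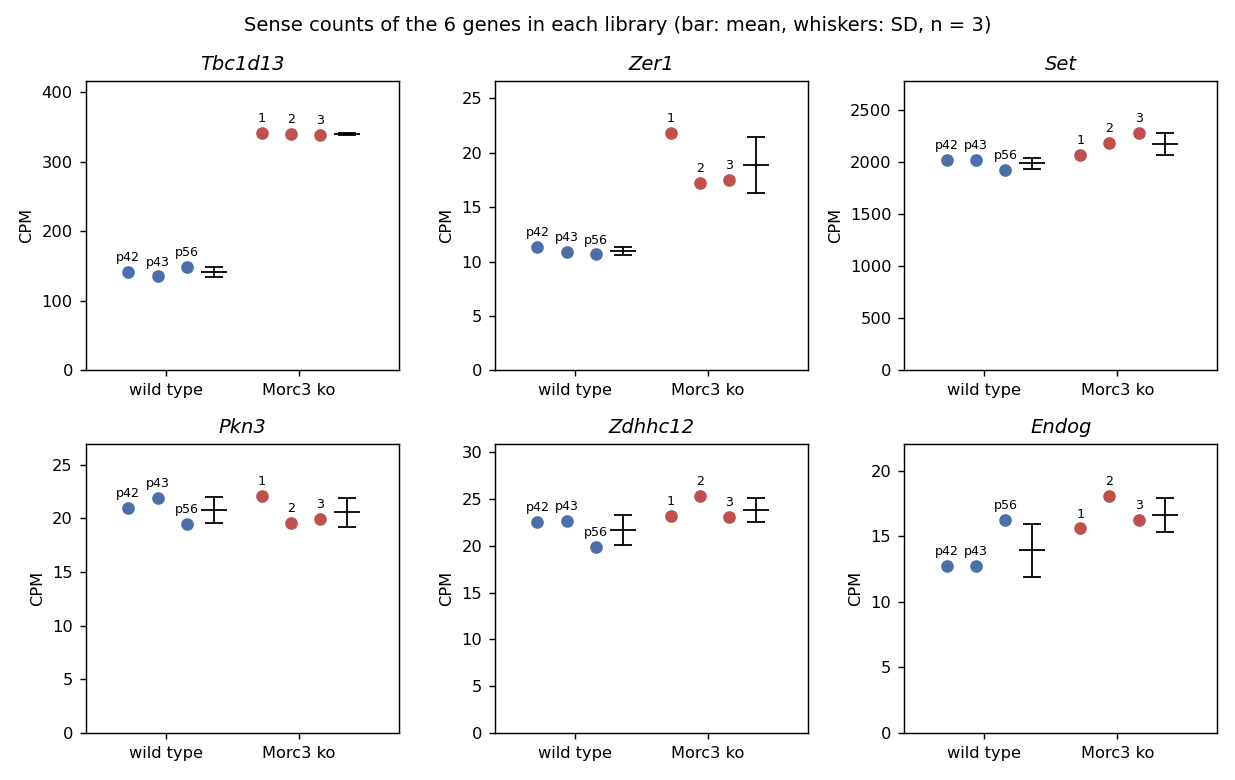
Level of each of the 6 genes in each library (CPM on the y axis from 0, 1 point per library, named by wild-type label or clone number; the bar beside the points is the mean and the whiskers the SD, n = 3). The ko points of Tbc1d13 lie between 338.6 and 340.9 CPM, above wild-type points of 135.0 to 148.9 CPM, and the ko points of Zer1 lie above its wild-type points, while the points of Pkn3 and Endog overlap between groups.

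The 4 flanking genes differed less. Set, the most abundant of the 6, was at 2065, 2177 and 2274 CPM in clones 1, 2 and 3 and at 2018, 2018 and 1924 CPM in p42, p43 and p56. Its groups did not overlap, but the closest pair differed by 1.02-fold, and the log2 fold change was 0.13 (SE 0.06). Zdhhc12 was at 23.2, 25.3 and 23.1 CPM in ko and 22.6, 22.7 and 19.8 CPM in wild type (log2 fold change 0.14, SE 0.10), and the closest pair again differed by 1.02-fold. Groups that do not overlap were seen in 4 of the 6 genes, Tbc1d13, Zer1, Set and Zdhhc12, and in 19.9% of all tested genes.

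Pkn3 was at 22.1, 19.6 and 20.0 CPM in ko and 20.9, 21.9 and 19.5 CPM in wild type, a log2 fold change of -0.02 (SE 0.10). The lowest and the highest library of Pkn3 belonged to different groups, and the groups overlapped. Endog was at 15.6, 18.1 and 16.2 CPM in ko and 12.7, 12.7 and 16.3 CPM in wild type, a log2 fold change of 0.26 (SE 0.13). The library p56 was the highest of the wild-type libraries for Endog and reached the level of clone 3, so that the groups overlapped.

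Per kb of transcript, the order of the wild-type levels was Set (701 ± 19.2 CPM per kb), Tbc1d13 (39.4), Zdhhc12 (18.3 ± 1.36), Endog (13.1 ± 1.93), Pkn3 (6.67 ± 0.397) and Zer1 (2.62), and the order in ko was the same. Each pair of neighbours in this order was separated by more than the sum of their SDs in both groups. Among the 12222 tested genes ordered by the mean CPM of each group, Tbc1d13 lay at percentile 87.5 in wild type and 95.8 in ko, and Zer1 at 32.8 and 44.0.

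As the selection used this contrast, its count over all genes is given as background only. At an adjusted p under 0.01 in edgeR, 156 of 12222 tested genes (1.28%) were called, 105 of them higher in ko (0.859%). Whether the genes of the locus were among those called is not given, because their selection on this contrast largely fixed that outcome. When clone 1, 2 or 3, p42 or p43 was left out, the log2 fold change of Zer1 lay between 0.67 and 0.84. Ordered by log2 fold change, Tbc1d13 was number 63 and Zer1 number 140 of 12222 genes, and they were numbers 7 and 11 of the 943 tested genes of chromosome 2. No gene ahead of Tbc1d13 reached 100 CPM in wild type. Among the 2225 genes with at least 100 CPM in wild type, Tbc1d13 had the largest log2 fold change, followed by Dnajc21 (1.19, SE 0.07), a cochaperone gene. This floor was not planned, and it leaves out genes that rose from a lower wild-type level. By the rise in CPM (198 CPM) Tbc1d13 was number 13 of all genes.

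**Figure D2:**
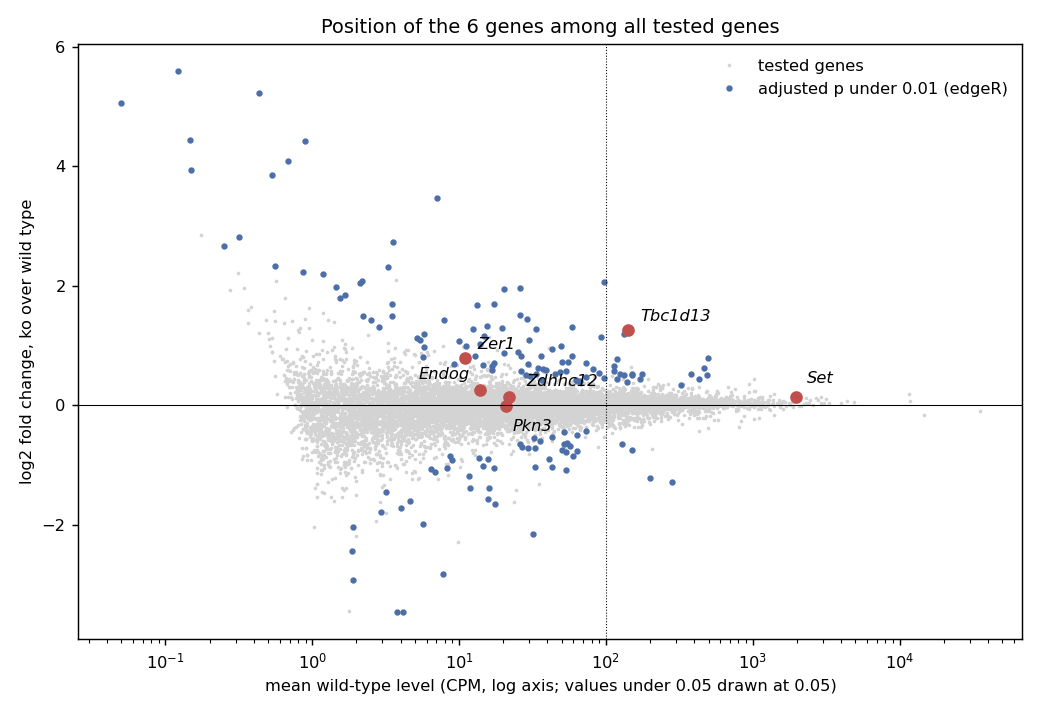
Log2 fold change, ko over wild type, against the mean wild-type level in CPM (log axis) for all 12222 tested genes; blue points are the 156 called genes, red points the 6 genes of the locus, and the dotted line marks 100 CPM. Tbc1d13 stands at 1.26, above every other gene to the right of the line, and Set, Pkn3, Zdhhc12 and Endog lie within 0.26 of 0.

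The other genes around the locus were taken by position and were tested. The 6 genes were picked from this stretch with earlier results known, so that the genes left out are not fully apart from the choice. A further 6 counted genes lie within 100 kb of the span from Zer1 to Tbc1d13, and 5 passed the filter. Sptan1, coding for a spectrin, was at 752 ± 31.7 CPM in ko and 741 ± 10.4 CPM in wild type (log2 fold change 0.02, SE 0.06, edgeR adjusted p = 0.912). Wdr34, a dynein subunit gene now named Dync2i2, had a log2 fold change of 0.06 (SE 0.09, adjusted p = 0.826) and Spout1, counted under its older symbol D2Wsu81e, one of 0.07 (SE 0.07, adjusted p = 0.723). Kyat1, a kynurenine aminotransferase gene counted as Ccbl1, was at -0.08 (SE 0.14, adjusted p = 0.856), and Lrrc8a, which codes for a subunit of the volume-regulated anion channel, was at -0.03 (SE 0.10, adjusted p = 0.923). The gene 1700084E18Rik had too few counts to be tested. None of the 5 was called by edgeR, by DESeq2 or by limma-voom, and none had an unadjusted p under 0.05 in edgeR. Of all tested genes, 1.28% were called by edgeR and 14.3% had an unadjusted p under 0.05. At these shares few calls can be awaited among 5 genes.

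Within 500 kb, 28 other genes were counted and 22 tested. None was called by edgeR, DESeq2 or limma-voom, beside 1.28% of all tested genes called by edgeR. In edgeR, 0 had an unadjusted p under 0.05, beside 14.3% of all tested genes. Of the 22 genes, 11 had a fold change above and 11 below 0, with a median log2 fold change of 0.0067 and a range from -0.23 to 0.17. At the ends of this range were Phyhd1 (-0.23, SE 0.19, adjusted p = 0.668) and Miga2, counted as Fam73b (0.17, SE 0.11, adjusted p = 0.544), and the next largest was Ptpa, an activator of protein phosphatase 2A counted as Ppp2r4 (-0.12, SE 0.08, adjusted p = 0.559).

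Over the 943 tested genes of chromosome 2, the median log2 fold change was 0.005 and 1.17% were called. The median log2 ratio of the chromosome in a single library lay between -0.004 and 0.010.

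**Figure D3:**
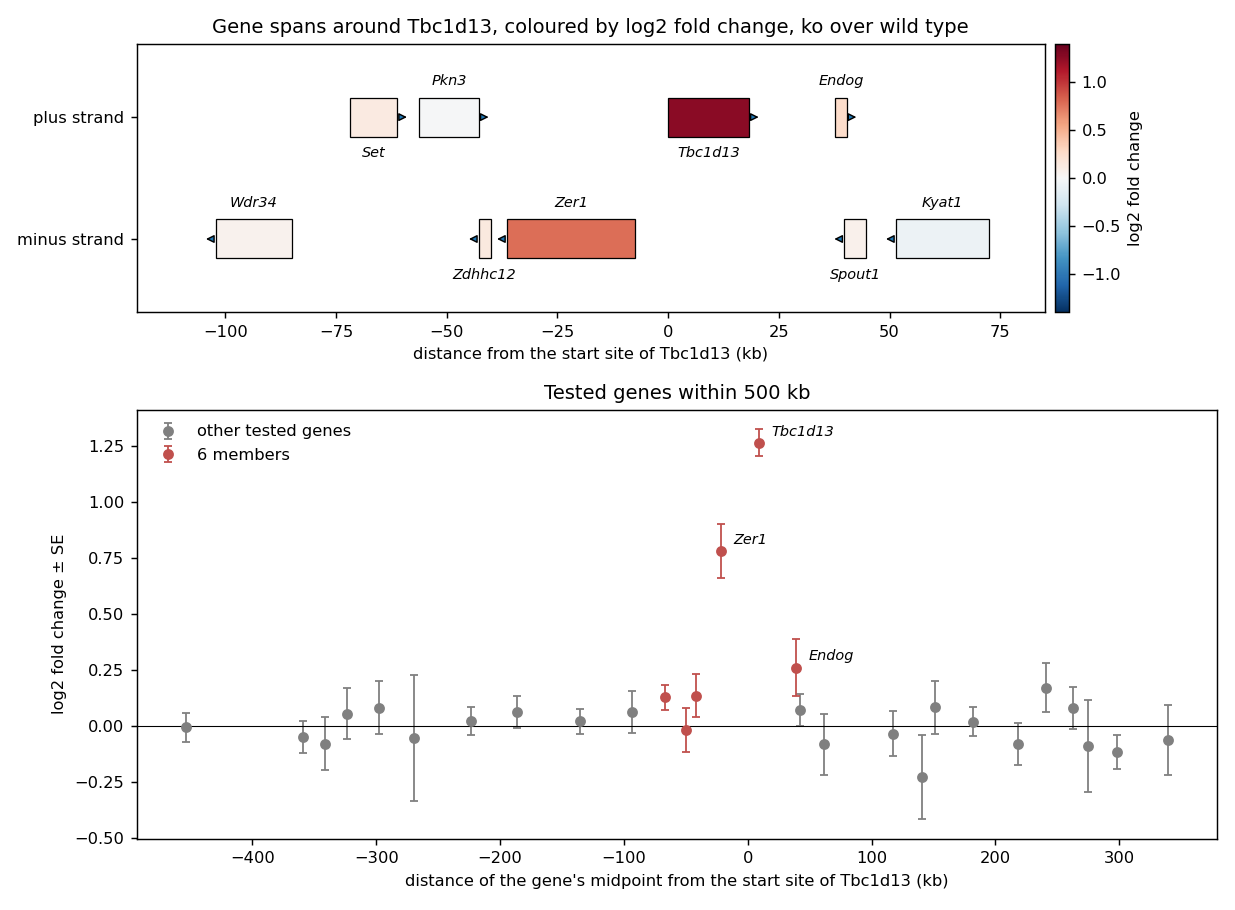
Top, spans of the genes around Tbc1d13 by strand, with arrows in the direction of transcription and colour for the log2 fold change, ko over wild type, against the distance from the start site of Tbc1d13 in kb. Bottom, log2 fold change ± SE of each tested gene within 500 kb at its midpoint, with the 6 genes of the locus in red. Tbc1d13 (1.26) and Zer1 (0.78) stand above the other tested genes within 500 kb, which lie between -0.23 and 0.26.

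The libraries were stranded, and reads on the strand opposite to each gene were counted apart. Over all genes these were 1.21% to 1.27% of the gene counts on both strands. Tbc1d13 had 8, 3 and 3 opposite-strand counts in clones 1, 2 and 3 and 1, 1 and 0 in p42, p43 and p56, which is 0.124% of its counts in ko and 0.0345% in wild type. The ratio of ko to wild type was 8.34 relative to all opposite-strand counts and 3.60 relative to the sense counts of Tbc1d13. These ratios rest on 14 counts in ko, 8 of them in clone 1, and 2 in wild type. They were not tested. Zer1 had 0, 2 and 1 counts in ko and 0, 0 and 1 in wild type. Neither gene had enough opposite-strand counts for the filter, and neither was fitted on this strand.

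The other 4 genes were among the 1378 genes fitted on this strand, of which 7 (0.508%) were called by edgeR. Set had 50, 71 and 49 opposite-strand counts in ko and 69, 55 and 53 in wild type (log2 fold change 0.21, SE 0.19). Pkn3 and Zdhhc12 overlap by 81 bp tail to tail, and 13.4% of the Pkn3 counts in ko and 10.8% in wild type were on the opposite strand (log2 fold change 0.29, SE 0.23), with 27 to 42 counts per library. Zdhhc12 had 13, 8 and 10 opposite-strand counts in ko and 12, 8 and 15 in wild type (log2 fold change 0.09, SE 0.41). Endog overlaps the 3′ end of Spout1 on the other strand by 624 bp. Its opposite-strand counts, 206, 202 and 209 in ko and 287, 251 and 239 in wild type, made up 52.7% and 57.7% of its reads (log2 fold change -0.06, SE 0.12). When strand was ignored, reads in the overlap were not given to either gene, and Endog fell to 53, 59 and 47 counts in ko and 44, 43 and 63 in wild type, whereas Tbc1d13 stayed at 3696, 3849 and 3734 in ko and 1946, 1929 and 1928 in wild type. Zer1, which overlaps none of the other 5 genes, changed by 4 counts in total.

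**Figure D4:**
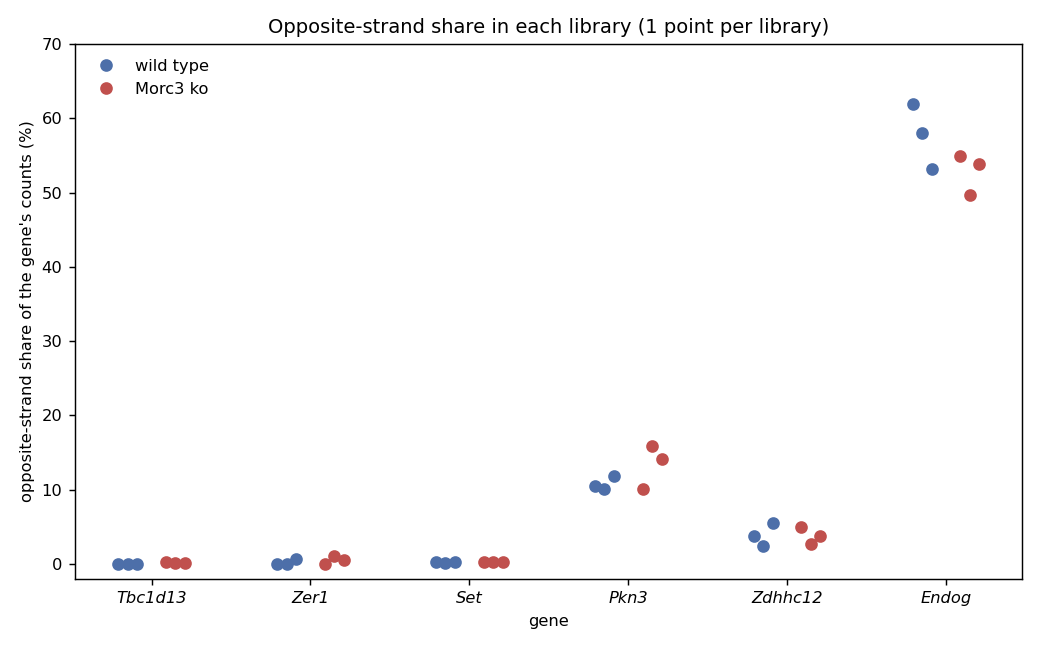
Share of the counts of each gene on the opposite strand (% of both strands), 1 point per library, wild type in blue and ko in red. Tbc1d13, Zer1 and Set lie near 0, Pkn3 between 10.1% and 15.9% and Endog between 49.6% and 62.0%.

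Relatives and partners of the 6 genes were then followed across the genome, in lists read beside all tested genes, of which 1.28% were called, 14.3% had an unadjusted p under 0.05 in edgeR and the median log2 fold change was -0.0001. Of 37 tested TBC domain genes other than Tbc1d13, 20 were higher and 17 lower in ko, with a median log2 fold change of 0.014, and 0 were called by edgeR, DESeq2 or limma-voom (5, or 13.5%, had an unadjusted p under 0.05 in edgeR). Tbc1d10a and Tbc1d10b, which also act on Rab35, were at 0.02 (SE 0.10, adjusted p = 0.952) and 0.14 (SE 0.11, adjusted p = 0.639). Rab35 itself was at 101 ± 3.01 CPM in ko and 99.2 ± 0.291 CPM in wild type (0.03, SE 0.06, adjusted p = 0.886). Of the 13 tested genes of the Rab35 circuit, with its exchange factors and effectors, 0 were called by any of the 3 tools and 0 had an unadjusted p under 0.05 in edgeR, at a median of -0.025.

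Of 17 tested partners of Zer1, which were Cullin 2 ligase subunits, substrate receptors and the N-myristoyltransferases Nmt1 and Nmt2, 0 were called by any of the 3 tools (median log2 fold change 0.056). The only one with an unadjusted p under 0.05 in edgeR (5.88% of the list) was Nmt2, which is neither a subunit nor a receptor and was named after its values were seen (-0.14, SE 0.06, adjusted p = 0.333). Zyg11b, the relative of Zer1, was at -0.08 (SE 0.08, adjusted p = 0.699) and the scaffold gene Cul2 at 0.10 (SE 0.07, adjusted p = 0.597). No call was made by these tools among 18 Zdhhc palmitoyltransferases (median -0.041) and 7 Pkn kinases and their activators (median 0.038), with 0 unadjusted p under 0.05 in edgeR in either list. Pkn2, a relative of Pkn3, was at 0.00 (SE 0.06, adjusted p = 0.989). A list of 9 genes set beside Endog held mitochondrial nucleases, death factors, the mitochondrial DNA factors Tfam and Polg and the lysosomal nuclease gene Dnase2a. None of the 9 was called by the 3 tools (median 0.058). In edgeR, 2 of them (22.2%) had an unadjusted p under 0.05 and are named for it after their values were seen, Dnase2a (0.44, SE 0.13, adjusted p = 0.113) and the mitochondrial nuclease gene Mgme1 (0.18, SE 0.07, adjusted p = 0.240). Exog, the closest relative of Endog, was at -0.01 (SE 0.10, adjusted p = 0.984).

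Among 17 tested relatives and partners of Set (median 0.047), 1 was called (5.88%, beside 1.28% of all tested genes), Nap1l2, a histone chaperone gene of the X chromosome. Nap1l2 was at 8.13, 9.09 and 9.17 CPM in clones 1, 2 and 3 and at 2.53, 2.10 and 1.70 CPM in p42, p43 and p56, without overlap (log2 fold change 2.05, SE 0.18, edgeR adjusted p = 6e-05, n = 3), and it was called in all 11 alternative settings. The span of another gene, 4930519F16Rik, covers Nap1l2 and was called higher too, so that the split of reads between them is uncertain. Anp32a, which like Set codes for an inhibitor of protein phosphatase 2A, was at 0.06 (SE 0.09, adjusted p = 0.853).

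**Figure D5:**
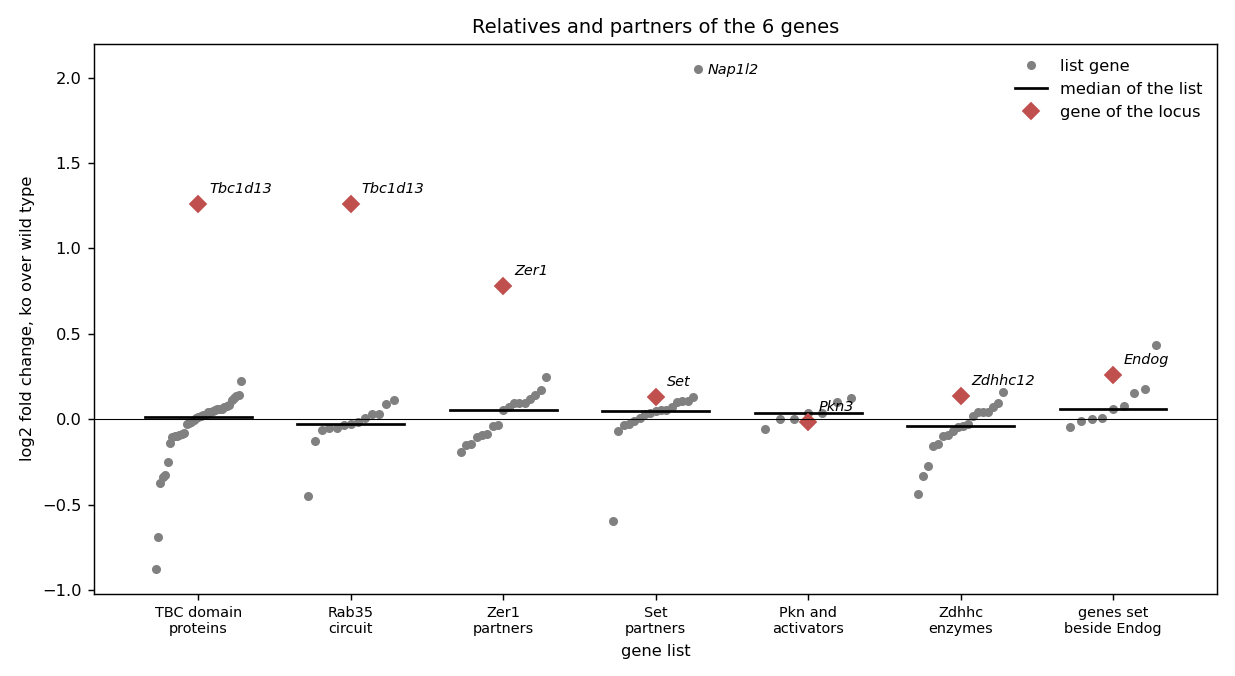
Log2 fold change, ko over wild type, of the tested genes of each list (grey points, ordered by value), the median of the list (black line) and the gene of the locus that the list belongs to (red diamond). Tbc1d13 and Zer1 lie above all genes of their lists, the list medians lie between -0.041 and 0.058, and Nap1l2 at 2.05 is the only called gene among the grey points.

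As a description, the tested genes whose log2 CPM followed Tbc1d13 most closely over the 6 libraries were Tlr2 (Pearson r = 0.999), Ube2l6 (0.998), Psme4 (0.997), LOC666331 (0.997) and Eif2s2 (0.996). All 5 were called higher in ko, from a log2 fold change of 0.62 for Psme4, a proteasome activator gene, to 4.44 for LOC666331, and Ube2l6 and Eif2s2 lie on chromosome 2 but not near Tbc1d13. Zer1 was number 115 in this order (r = 0.957). For Zer1 the nearest were D17Wsu104e (0.996), Bdh1 (0.992), Zfp516 (0.990), Cdcp1 (0.990) and Efr3b (0.987), of which Bdh1 and Zfp516 were called higher, and Tbc1d13 was number 61. The correlation takes no account of the size of a difference. D17Wsu104e, the nearest, had a log2 fold change of only 0.06 (SE 0.08, edgeR adjusted p = 0.817). The points share the same 6 libraries and the same split into groups. Genes picked for so close a correlation with Tbc1d13 are bound to be higher in ko, so that their calls are no separate result.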

How the data were processed

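RNA was measured in 3 Morc3 ko clones and 3 wild-type samples with stranded, ribosome-depleted libraries read as pairs of 50 bp. The authors aligned reads to mm10 with STAR and deposited raw counts per gene for either strand and for both. The gene annotation is not given in the sources used here. Rows that name no gene held 36.2% to 37.7% of the sense column and were left out. Counts were fitted with the quasi-likelihood test of edgeR 4.0.16 (R 4.3.3) over all genes passing filterByExpr (minimum count 10, minimum total 15), with TMM factors, group as the only term and Benjamini-Hochberg adjustment. A gene was called at an adjusted p under 0.01, the threshold the study applied with DESeq2. DESeq2 1.42.0, limma 3.58.1 (voom), other size factors, no filter, strand-blind counts, other windows, an adjusted p under 0.05 and leaving out each library were alternatives. The fit was tested on simulated data.

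Positions are from RefSeq (GRCm38.p6), which matched 23894 of 24054 symbols, and lengths per kb are of the longest coding transcript in GENCODE M21. Named are the 6 genes, Morc3, genes within 100 kb, of those to 500 kb the called and the 3 with the largest fold change, called and preset genes of 7 lists, and the 5 genes most alike Tbc1d13 or Zer1. The genes and lists were chosen with earlier results of these data known. Some genes named by this rule, and the call outside 500 kb, are not reported here.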

Additional observations from a re-analysis of the deposited data

How the results depend on the processing

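The log2 fold changes of the 6 genes kept their direction in 11 alternatives, except that of Pkn3, which lay on both sides of 0: Tbc1d13 1.23 to 1.30, Zer1 0.67 to 0.84, Endog 0.20 to 0.39, Set 0.10 to 0.17, Zdhhc12 0.08 to 0.17 and Pkn3 -0.07 to 0.02. Without clone 1 the log2 fold change of Zer1 was 0.67. As these genes were chosen on this contrast, their calls would give no support of their own and are left out.

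Over all genes, 259 were called with DESeq2, 286 without the filter and 331 at an adjusted p under 0.05. Leaving out single libraries gave 72 to 385 calls, with 96 without clone 1, 73 without clone 2, 72 without clone 3 and 385 without p56. On the opposite strand, DESeq2 called 4 genes, an adjusted p under 0.05 gave 13, and leaving out single libraries gave 4 (without clone 3) to 9. The cause was not tested. Neighbours called were 1 in a window of 1000 kb and 0 in the other alternatives. The chromosome 2 median of clone 2 was 0.0029 to 0.0101 and that of clone 3 was 0.0033 to 0.0077 when 1 wild-type library was left out of the reference. Counts per list did not change.

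Zer1 rests on 138 to 236 counts per library. No paired analysis was possible because the ko and wild-type libraries share no replicate number.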
